A study of Mus musculus with 16 samples.

Results

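Genes of amino group transfer were followed in gonadal white adipose tissue of male C57BL/6 mice: the alanine aminotransferases Gpt and Gpt2, the aspartate aminotransferases Got1 and Got2, glutamine synthetase (Glul) and glutamate dehydrogenase (Glud1). They were chosen by name as a pathway, with earlier results of these data known. All 6 of 6 had a probe set, out of 22180 genes measured. RNA abundance was read on Affymetrix arrays, 1 per sample, for 16 samples of mice aged 3 to 4 months, 8 with food at hand (fed) and 8 after 16 hours without food (fasted), all sampled in the morning. Every group carried the same strain background, and no transgene or drug was named in the labels. Whether every sample is a different mouse is not stated in the labels. The p-values therefore reflect only the scatter among these samples, part of which may be technical. Values are log2 expression values of a probe set, with RMA named in the submitters' processing notes, and a difference is fasted minus fed.

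Aminotransferases move the amino group of an amino acid onto 2-oxoglutarate, which yields glutamate. The alanine enzymes link alanine with pyruvate, and the aspartate enzymes link aspartate with oxaloacetate. Each pair has 1 cytosolic form, Gpt or Got1, and 1 mitochondrial form, Gpt2 or Got2, and the aspartate pair is part of the malate-aspartate shuttle that carries reducing equivalents into mitochondria. Glutamate dehydrogenase releases the amino group of glutamate as ammonia inside mitochondria, and glutamine synthetase fixes ammonia onto glutamate in the cytosol. White fat is known to release glutamine and alanine, and Glul is a known target of glucocorticoids.

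The 6 genes were called in both directions. Gpt fell and Got1 and Glul rose, while Gpt2, Got2 and Glud1 did not pass the test (Benjamini-Hochberg adjusted p under 0.05 over all 22180 genes in limma). In the fit over all genes 19.2% of genes were called, 8.49% higher and 10.7% lower, against 2 higher and 1 lower of the 6. That base includes dim genes, and the share was larger among brighter ones. With dim genes filtered out all 6 were kept, and 4553 of 10832 genes were called, 1970 higher and 2583 lower. Of the 6, 2 were then called higher and 2 lower, Got2 being the added one. The median difference of the 6 was -0.050, against -0.0042 over all genes. The median size of the difference without its sign was 0.35, against 0.12 over all genes, dim ones included. In bulk tissue a change in the share of a cell type and a change in RNA per cell cannot be told apart.

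Markers of adipocytes were high in every array, with a mean log2 value over 8 of 9 listed genes of 11.31 to 11.54 in fed and 11.32 to 11.53 in fasted arrays. Single markers went both ways: of the 8, Pnpla2 (0.61) and Cidec (0.25), both lipid droplet proteins, were called higher, and Plin1 (-0.84), which coats the droplet, and the adipokine Retn (-0.25) were called lower. Adiponectin (Adipoq) lay between 10.52 and 10.91 over both groups. A mean over 18 of 19 liver transcripts varied widely, from 5.90 to 8.73 in fed and from 6.06 to 8.22 in fasted arrays, and albumin (Alb) from 9.04 to 12.07. Of the 18, Cyp2e1 (0.49) was called higher and Hp (-0.29) lower. Both were high in every array, at 11.61 to 12.70 and 11.26 to 12.07. The mean over 9 of 12 motile cilia genes stood at 5.33 in fed replicate 2 and 4.85 in fasted replicate 7, and at no more than 3.48 in the other arrays. Skeletal muscle markers were low, with list means between 2.95 and 3.41 over 10 genes. No difference of the 10 list means tested, these 4 included, passed (exact permutation test, two-sided, adjusted over 10 lists, n = 8 per group; adjusted p = 0.443 to 0.952). Single markers of lists not described here were called: of 7 macrophage genes Cd68 (0.88) and Cd163 (0.73) were higher and Mrc1 (-0.23) lower. Of 7 endothelial genes Pecam1 (0.39) and Tek (0.22) were higher and 0 lower. The part of cell types in the results below was not tested beyond the values given beside them.

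The sequence just upstream of the start site is given for 3 genes, because Got1 and Glul were the members that rose and Got2, the partner of Got1, did not pass the test. The RefSeq promoter table for build GRCm38.p6 held 5 of the 6 genes, and Gpt was not in it. Each run below is the 250 bases before the annotated start, 5′ to 3′ on the gene's own strand, and capitals mark CCAAT or its reverse complement ATTGG. Got1 lies at chr19:43499752-43524605 on the minus strand, with its upstream bases at chr19:43524606-43524855. Got2 lies at chr8:95864133-95888401 on the minus strand, with upstream bases at chr8:95888402-95888651. Glul lies at chr1:153899929-153909723 on the plus strand, with upstream bases at chr1:153899679-153899928.
Got1: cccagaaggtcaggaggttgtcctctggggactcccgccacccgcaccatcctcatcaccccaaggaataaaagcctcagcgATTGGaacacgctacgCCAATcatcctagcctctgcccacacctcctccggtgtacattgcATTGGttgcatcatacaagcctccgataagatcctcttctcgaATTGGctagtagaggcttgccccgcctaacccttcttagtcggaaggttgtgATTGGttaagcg
Got2: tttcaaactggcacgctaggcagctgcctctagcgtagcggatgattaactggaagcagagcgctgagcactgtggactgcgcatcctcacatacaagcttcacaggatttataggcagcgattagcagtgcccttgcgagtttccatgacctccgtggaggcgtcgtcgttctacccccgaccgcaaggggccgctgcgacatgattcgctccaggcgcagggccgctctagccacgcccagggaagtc
Glul: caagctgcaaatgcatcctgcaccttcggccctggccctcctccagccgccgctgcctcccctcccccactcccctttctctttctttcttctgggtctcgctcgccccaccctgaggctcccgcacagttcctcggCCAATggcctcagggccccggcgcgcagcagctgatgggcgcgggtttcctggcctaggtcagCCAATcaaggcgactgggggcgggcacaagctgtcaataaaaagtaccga

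The CCAAT box is a promoter element read by the factor NF-Y. It was found 5 times upstream of Got1, at -168, -152, -107, -64 and -12 from the start site, counted at the first base of each match. Glul had 2 matches, which began at -113 and -50, and Got2, Gpt2 and Glud1 had 0. Of all 32851 promoters of this length, 33.8% held at least 1 match, 10.1% at least 2 and 0.213% at least 5. The other motifs searched on both strands were the E-box CACGTG (in 6.02% of promoters), the cAMP response element TGACGTCA (1.55%), the core of the glucocorticoid response element TGTTCT (16.1%), the forkhead element TGTTTAC (3.17%), the ATF4 element TGATGNAAT (0.816%) and the sterol element TCACNCCAC (1.05%). None of these letters occurred in the 250 bases of the 5 genes. Whether any motif bears on the change with fasting was not tested, and Gpt, with the largest change of the 6, could not be searched.

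Gpt, the cytosolic alanine aminotransferase at chromosome 15, 76696726 to 76699675, was high in fed and low in fasted fat. Its log2 values ran from 7.38 through a median of 8.03 to 8.20 in fed arrays, and from 4.48 through 5.02 to 6.25 in fasted arrays. The groups did not overlap, as was so for 6.48% of all genes in either direction and for 3.45% with the fasted arrays lower. The difference was -2.69 (SE 0.23, limma adjusted p = 1.03e-07), which is 6.46-fold lower in fasted arrays. This was the sixth lowest value among the differences of 22180 genes, and 15 genes, Gpt included, differed at least as much in either direction. Fasted arrays were more spread than fed ones, with an SD of 0.67 against 0.25 (n = 8 each). Fasted replicates 4, 3 and 2 were the highest of their group at 6.25, 6.08 and 5.75, and the remaining fasted arrays lay between 4.48 and 5.06.

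Gpt2, the mitochondrial form at chromosome 8, 85492576 to 85528902, did not pass the test. It lay between 8.87 and 9.48 in fed arrays (median 9.05) and between 8.35 and 9.37 in fasted arrays (median 8.87). The groups overlapped, although 4 of 8 fasted arrays were below the lowest fed array. The difference was -0.23 (SE 0.14, limma adjusted p = 0.302), with a 95% confidence interval of -0.51 to 0.057. Fasted arrays again spread more, with an SD of 0.36 against 0.19.

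**Figure D1:**
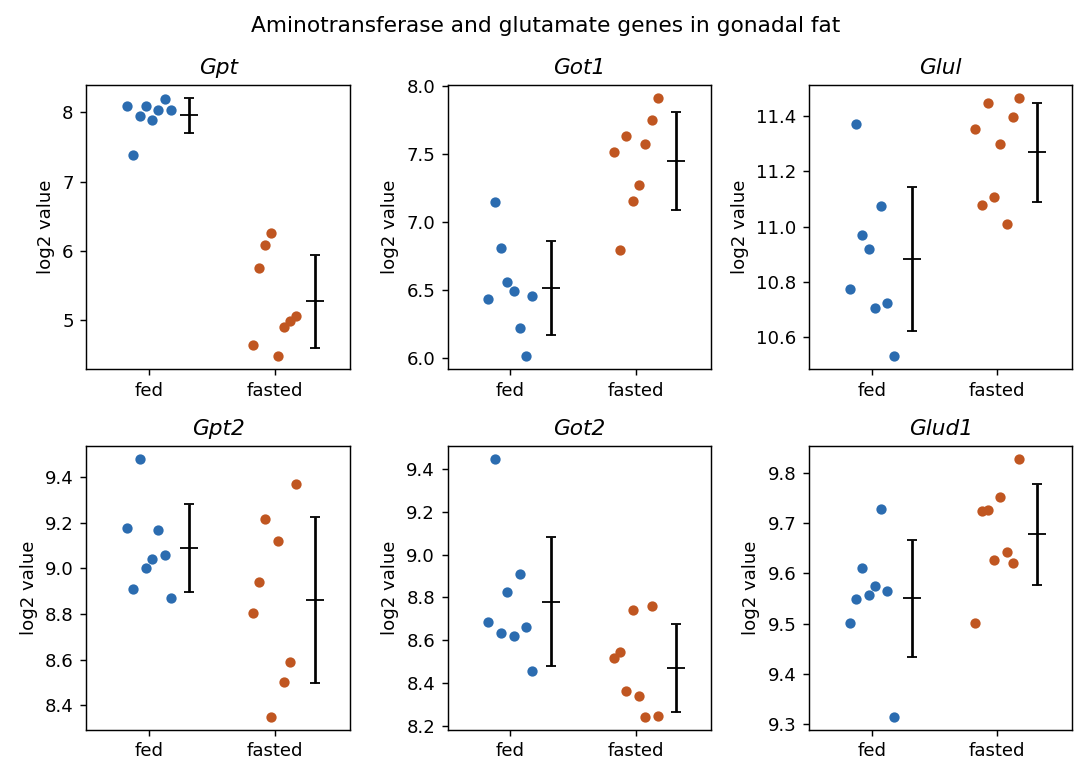
Log2 value of each of the 6 genes in each fed (blue) and fasted (orange) array, with the group mean and SD in black (n = 8 each). Gpt separates fully, with fed arrays at 7.38 or more and fasted arrays at 6.25 or less. In the other genes the groups overlap, with Got1 and Glul called higher in fasted arrays. Of 8 fasted arrays, 7 for Got1, 3 for Glul and 2 for Glud1 lie above the highest fed array. For Gpt2 and for Got2, 4 lie below the lowest fed array.

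The cytosolic alanine enzyme fell more than the mitochondrial one within the same arrays. The log2 value of Gpt minus that of Gpt2 lay between -1.53 and -0.84 in fed arrays and between -4.64 and -2.10 in fasted arrays. Its mean shifted by -2.46 (SE 0.30; exact permutation test, two-sided, n = 8 per group, p = 0.000155, the smallest the design allows; adjusted over 3 pairs, p = 0.000233). No array of one group reached the range of the other.

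Got1, the cytosolic aspartate aminotransferase, was higher in fasted fat. Fed arrays ran from 6.02 through a median of 6.47 to 7.15, and fasted arrays from 6.79 through 7.55 to 7.92. Of the 8 fasted arrays 7 lay above the highest fed array, and fasted replicate 2, the lowest at 6.79, lay below fed replicates 2 and 3 at 7.15 and 6.81. The difference was 0.93 (SE 0.16, limma adjusted p = 3.08e-04), which is 1.91-fold higher, and 437 genes (1.97%) differed at least as much in either direction. Without fed replicate 2, the fed array with the highest Got1 and the highest cilia markers, it was 1.02 (limma adjusted p = 6.53e-05).

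Got2, the mitochondrial aspartate aminotransferase, did not pass the test. Fed arrays lay between 8.46 and 9.45 (median 8.67) and fasted arrays between 8.24 and 8.76 (median 8.44). The difference was -0.31 (SE 0.12, limma adjusted p = 0.0865), with a 95% confidence interval of -0.57 to -0.056. The highest fed value, 9.45, belonged to fed replicate 2, and without that array the difference was -0.22 (limma adjusted p = 0.131). It passed the threshold when dim genes were left out of the adjustment (adjusted p = 0.0447 and 0.0461 with 2 filters) and with the adipocyte marker mean as a covariate (-0.43, adjusted p = 0.00846). A second probe set of Got2 was dim, with a fed mean of 3.62 ± 0.25 and a fasted mean of 3.50 ± 0.11 (SD, n = 8), and differed by -0.12 (SE 0.095, limma adjusted p = 0.480 over all probe sets). Its level was near the array medians, so no direction was read from it.

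Within the aspartate pair the change was unequal. Got1 minus Got2 lay between -2.69 and -1.82 in fed arrays and between -1.75 and -0.33 in fasted arrays, with no overlap. The mean shifted by 1.25 (SE 0.20; exact permutation test, two-sided, n = 8 per group, p = 0.000155; adjusted over 3 pairs, p = 0.000233). In the alanine pair the cytosolic form moved down against the mitochondrial form, and in the aspartate pair it moved up against it.

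**Figure D2:**
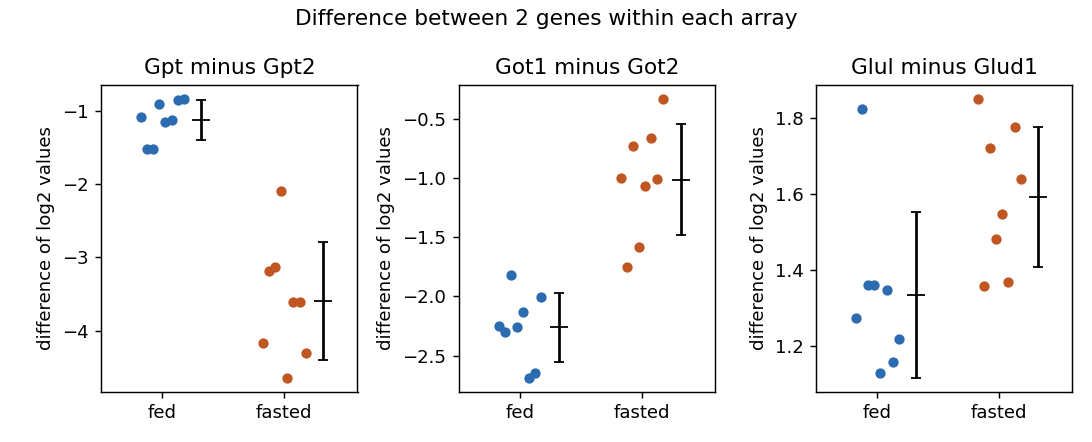
Difference of the log2 values of 2 genes within each fed (blue) and fasted (orange) array, with the group mean and SD in black (n = 8 each). Gpt minus Gpt2 is shifted by -2.46 and Got1 minus Got2 by 1.25 with no overlap between the groups, and Glul minus Glud1 is shifted by 0.26 with overlap.

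Glul, which makes glutamine from glutamate and ammonia, was modestly higher in fasted fat. Fed arrays ran from 10.53 through a median of 10.85 to 11.37, and fasted arrays from 11.01 through 11.33 to 11.47. All 8 fasted arrays lay above the fed median, and 3 lay above the highest fed array, fed replicate 2. The difference was 0.39 (SE 0.11, limma adjusted p = 0.0155), which is 1.31-fold higher, and 0.46 without fed replicate 2 (limma adjusted p = 0.00178). Its dimmer probe set, with a fed mean of 6.73 ± 0.22 and a fasted mean of 7.13 ± 0.45 (SD, n = 8), gave a difference of 0.40 of the same direction and size, but with a wider error (SE 0.16) and no call (limma adjusted p = 0.104 over all probe sets).

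Glud1, the mitochondrial glutamate dehydrogenase at chromosome 14, 34310727 to 34345033, had the smallest SDs of the 6 genes and did not pass the test. Fed arrays lay between 9.32 and 9.73 (median 9.56) and fasted arrays between 9.50 and 9.83 (median 9.68), and the SD was 0.12 and 0.10 (n = 8 each). The difference was 0.13 (SE 0.065, limma adjusted p = 0.212), with a 95% confidence interval of -0.0096 to 0.26. Glul minus Glud1 shifted by 0.26 (SE 0.10; exact permutation test, two-sided, n = 8 per group, p = 0.0246; adjusted over 3 pairs, p = 0.0246), and this call was lost with the dimmer probe set of Glul (0.27, adjusted p = 0.147) and with the mean of both probe sets (0.27, adjusted p = 0.0592).

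**Figure D3:**
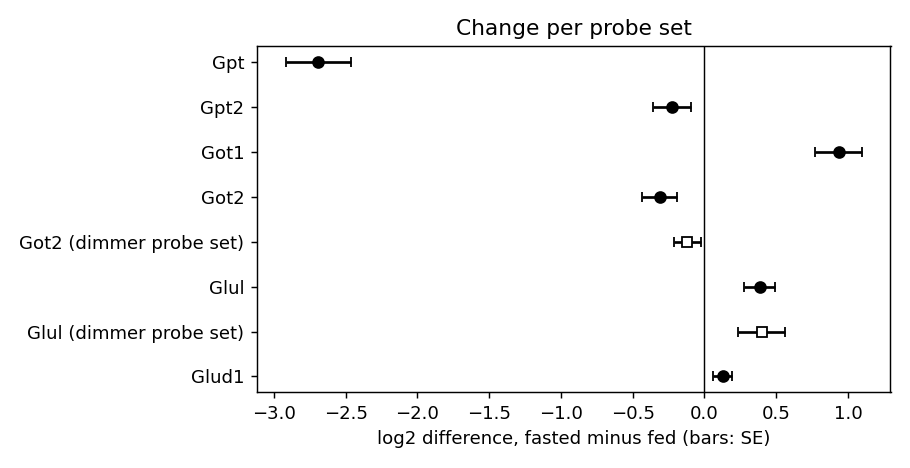
Difference, fasted minus fed, for each of the 8 probe sets of the 6 genes, with its SE (limma, n = 8 per group). Filled circles are the probe sets with the higher mean and open squares the dimmer ones of Got2 and Glul, at -0.12 and 0.40, neither of which passed the test.

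No relation between the 6 genes and the marker means within a group passed adjustment. Of 36 relations between a gene and the liver, muscle or adipocyte mean within a group (n = 8), 0 passed adjustment by exact permutation while 2 had an unadjusted p under 0.05 by Pearson's r and 3 by Spearman's rho (lowest adjusted p = 0.618 and 0.441). The 2 were Glud1 with the adipocyte mean in fasted arrays (Pearson's r = 0.802, Spearman's rho = 0.786, exact permutation p = 0.0188 and 0.0279; r = 0.759 without the 2 arrays farthest from the median) and Got2 with it there (r = -0.716, rho = -0.762, exact permutation p = 0.0438 and 0.0368; r = -0.413 without them). For Gpt and the liver mean, r was -0.370 in fed and 0.213 in fasted arrays (rho -0.143 and 0.476, exact permutation p = 0.476 and 0.609, n = 8). With the liver mean as a covariate the 3 called genes kept their calls.

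The genes were also compared with each other inside a group. Of 30 relations among the 6 genes within a group, 0 passed adjustment by exact permutation while 3 had an unadjusted p under 0.05 by Pearson's r (n = 8, lowest adjusted p = 0.0744). The closest was Got2 with Glul in fed arrays, with r = 0.927 and rho = 0.857 (exact permutation p = 0.00248 and 0.0107), and r = 0.753 without fed replicates 2 and 6. Gpt with Got1 in fed arrays gave r = -0.850 and rho = -0.690 (exact permutation p = 0.0119 and 0.0694, adjusted p = 0.178), and r = -0.337 without fed replicates 2 and 7, so it rested on those arrays. Gpt2 with Glud1 in fasted arrays gave r = 0.706 and rho = 0.762 (exact permutation p = 0.0494 and 0.0368, adjusted p = 0.392; r = 0.586 without fasted replicates 4 and 8).

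The genes most like Gpt over the 16 arrays were the Wnt receptor Fzd4 (r = 0.985), the lipid droplet protein Pnpla3 (0.985), the monocarboxylate transporter Slc16a7 (0.983), the triglyceride-forming enzyme Dgat2 (0.981) and Cdsn (0.975). These r values are descriptions over arrays that include the fed and fasted difference. Over deviations from the group means, which leave that difference out, Fzd4, Pnpla3 and Slc16a7 were again among the 5 closest, at 0.862, 0.853 and 0.832, with Aldh1a7 at 0.841 and A530053G22Rik at 0.817.

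**Figure D4:**
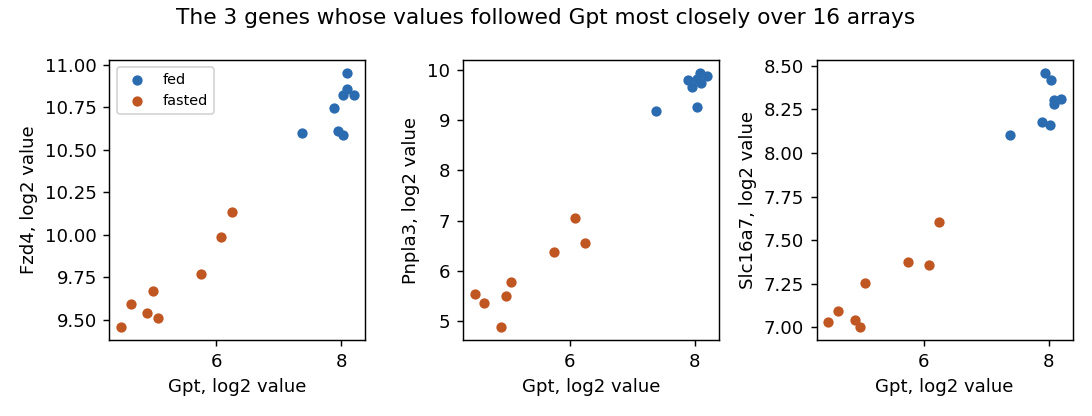
Log2 value of Fzd4, Pnpla3 and Slc16a7 (vertical axes) against that of Gpt (horizontal axis) in 8 fed (blue) and 8 fasted (orange) arrays. The groups form separate clouds, and the genes were picked for their likeness to Gpt, so the shared order of the arrays restates that choice.

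Over the 16 arrays Got1 was most like the thiamine transporter Slc19a2 (r = 0.951) and the splicing factor gene Srsf11 (0.938), followed by Uhrf2, Jmjd1c and Chd2 (0.932, 0.929 and 0.927). Over deviations from the group means the closest were the receptor kinase Mertk (0.898), 2610035D17Rik (0.860), Slc19a2 (0.850), Scaf8 (0.841) and Srsf11 (0.832). Glul was most like Adgrg2 (0.893), Errfi1 (0.882), Fkbp5 (0.879), Dpyd (0.878) and Impa1 (0.877). Over deviations the closest were Hnrnpd (0.848), Wdr90 (0.836), 4933400F21Rik (0.834), Agmat (0.831) and Fkbp5 (0.824), a glucocorticoid-induced immunophilin that was in both sets.

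Around the 6 genes, 71 of 76 other listed genes of nitrogen and pyruvate metabolism and of regulators were measured. The remaining listed genes were not analysed here. Of the 71, 10 rose, 24 fell and 37 did not pass the test, a called share of 47.9% against 19.2% of all genes. That base includes dim genes. With dim genes filtered out, 60 of the list genes were left, and 11 rose and 25 fell, while 4553 of 10832 genes were called. The lists were drawn up with earlier results of these data known, so these counts are a description. Of the 34 calls, 7 were lost in at least 1 fit with an array left out, and 4 with array medians subtracted. Losses with quantile normalization repeated or cyclic loess are given beside the genes below. The counts were 9 higher and 20 lower without fed replicates 2 and 3 and fasted replicate 7. Fed replicate 2 and fasted replicate 7 had the highest cilia means of their groups, and fed replicate 3 the highest liver mean. Fasted replicate 4, with the highest liver mean of the fasted arrays, was kept in that fit.

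Among 15 measured enzymes that make or use glutamate and glutamine, 3 rose and 5 fell. Aldh4a1, which oxidises glutamate semialdehyde to glutamate, fell by 0.83 on the log2 scale from 6.17 ± 0.23 to 5.34 ± 0.23 (SD, n = 8; limma adjusted p = 2.28e-05). Prodh, proline dehydrogenase, fell by 0.66 and Oat, ornithine aminotransferase, by 0.28. In all 3 the groups did not overlap. Nit2, an omega-amidase, fell by 0.48, and Cad, which starts pyrimidine synthesis from glutamine, had a difference of -0.29 (limma adjusted p = 0.0304). Asns, which makes asparagine from aspartate and glutamine, rose 1.54-fold from 8.36 ± 0.20 to 8.98 ± 0.30 (SD, n = 8; limma adjusted p = 8.91e-04). Gclc and Gclm, the subunits of the enzyme that joins glutamate and cysteine for glutathione, had differences of 0.33 and 0.25 (limma adjusted p = 0.0375 and 0.0315). The calls of Cad, Gclc and Gclm were lost with single arrays left out. For Cad these were fed 2 and 7 with fasted 1, 2 and 3, each alone (0.0503 to 0.0642 after adjustment). For Gclc they were fed 1, 5, 6, 7 and 8 with fasted 3, 5, 6, 7 and 8 (0.0504 to 0.0780), and for Gclm fed 3, 4, 5, 7 and 8 with fasted 2, 7 and 8 (0.0526 to 0.0662). The call of Cad was also lost with quantile normalization repeated and with cyclic loess (limma adjusted p = 0.0765 and 0.0829).

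Of 12 other aminotransferases 1 rose and 4 fell. Psat1, the aminotransferase of serine synthesis, which also takes its amino group from glutamate, fell by 1.18 on the log2 scale from 7.26 ± 0.10 to 6.08 ± 0.27 (SD, n = 8; limma adjusted p = 1.28e-07), with no overlap between groups. Kyat3, a kynurenine aminotransferase, rose by 0.68 on the log2 scale from 6.74 ± 0.22 to 7.42 ± 0.35 (SD, n = 8; limma adjusted p = 0.00131), whereas its relative Kyat1 had a difference of -0.37 (adjusted p = 0.0281). Bcat2, the mitochondrial branched-chain aminotransferase, had a difference of -0.43 (adjusted p = 0.0344). The call of Kyat1 was lost without any 1 of fed 2, 3, 4 or 8 or fasted 4, 6 or 8 (0.0521 to 0.0580 after adjustment), and that of Bcat2 without any 1 of fed 1, 3, 5, 6 or 7 or fasted 1, 2, 4 or 7 (0.0505 to 0.0703). Kyat1 also lost its call with quantile normalization repeated and with cyclic loess (limma adjusted p = 0.0553 and 0.0628). Bcat2 lost its call with array medians subtracted (limma adjusted p = 0.0872). Oat was the remaining one of the 4. Tat, a tyrosine aminotransferase that is also on the liver list, had a difference of 0.58 with an SE of 0.57.

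Of 7 partners of the aspartate enzymes in the malate-aspartate shuttle, 0 rose and 3 fell (limma, with 3 of 7 at an unadjusted p under 0.05 and a lower level, and 1, Slc25a22, with a higher one). The 2-oxoglutarate carrier Slc25a11 fell by 0.51 from 8.22 ± 0.07 to 7.71 ± 0.15, and the cytosolic malate dehydrogenase Mdh1 by 0.50 from 10.05 ± 0.05 to 9.55 ± 0.17 (SD, n = 8; limma adjusted p = 2.51e-05 and 4.52e-05), both without overlap. Mdh2, the mitochondrial form, fell by 0.28, a call lost after subtraction of array medians (adjusted p = 0.0635). The aspartate-glutamate carriers Slc25a12 and Slc25a13 had differences of 0.15 and -0.075.

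Of 15 transporters of glutamine, glutamate and alanine, 2 were called higher and 1 lower, a share of 20% that is close to the 19.2% of all genes, dim ones included. Slc38a2, which takes up glutamine and alanine with sodium, rose 1.65-fold from 8.09 ± 0.15 to 8.81 ± 0.41, and Slc3a2, the heavy chain of several amino acid exchangers, 1.65-fold from 9.11 ± 0.14 to 9.84 ± 0.25 (SD, n = 8; limma adjusted p = 9.86e-04 and 2.86e-05). Slc1a5, a neutral amino acid transporter with high affinity for glutamine, fell by 0.51 from 11.26 ± 0.08 to 10.75 ± 0.09 (SD, n = 8; limma adjusted p = 4.25e-06). Slc3a2 and Slc1a5 had no overlap between the groups. Slc7a5 had a difference of 0.66 and did not pass the test (limma adjusted p = 0.0506). It passed with array medians subtracted, quantile normalization repeated or cyclic loess (limma adjusted p = 0.0257, 0.0335 and 0.0367).

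**Figure D5:**
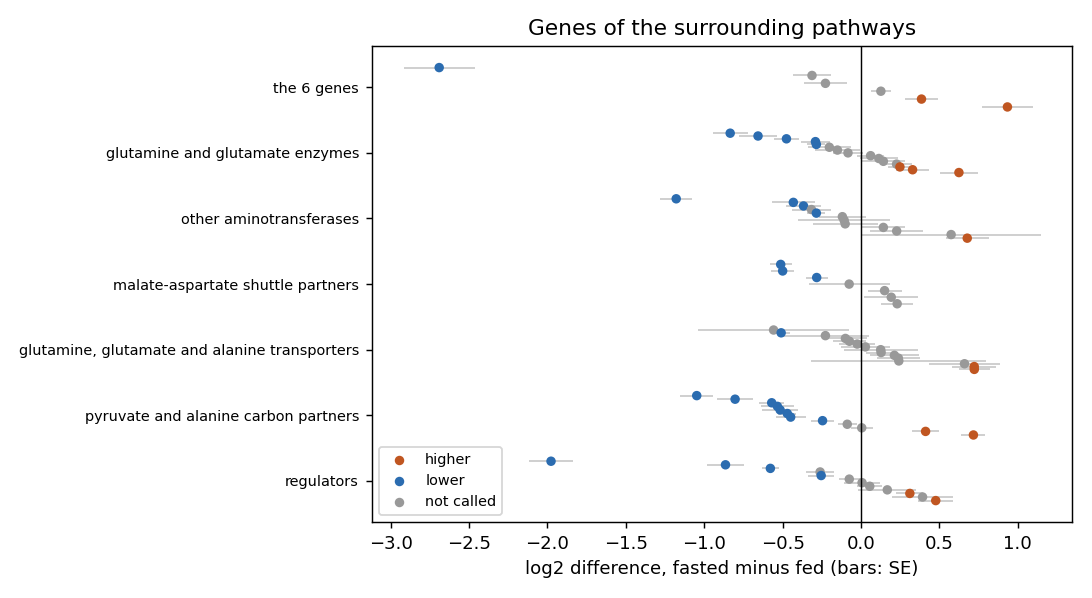
Difference, fasted minus fed, with its SE for each measured gene of the 6 described here and of 6 lists of related genes (limma, n = 8 per group; orange called higher, blue called lower, grey not called). Gpt at -2.69 and Srebf1 at -1.98 lie farthest to the left, and Got1 at 0.93 lies farthest to the right.

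Of 12 measured genes on the pyruvate side of the alanine reaction, 8 were called lower and 2 higher. Over all genes, dim ones included, the shares were 10.7% lower and 8.49% higher. With dim genes filtered out, 2583 of 10832 genes were called lower and 1970 higher. Malic enzyme Me1, which makes pyruvate from malate, fell by 1.05 from 10.14 ± 0.26 to 9.09 ± 0.15 (SD, n = 8; limma adjusted p = 7.55e-07). Pdhb and Dlat, subunits of pyruvate dehydrogenase, fell by 0.80 and 0.57, the mitochondrial pyruvate carrier Mpc1 by 0.53 and pyruvate carboxylase Pcx by 0.52. Pck1, the cytosolic enzyme that makes phosphoenolpyruvate from oxaloacetate, rose 1.64-fold from 11.56 ± 0.18 to 12.28 ± 0.09 (SD, n = 8; limma adjusted p = 1.87e-06), and mitochondrial Pck2 rose 1.33-fold. The lactate dehydrogenase gene Ldha had a difference of -0.24 (limma adjusted p = 0.0242), and Ldhb one of 0.0051 (SE 0.069). The call of Ldha was lost without fed 1 or fed 7, each alone (0.0515 to 0.0516 after adjustment). Array medians subtracted, quantile normalization repeated and cyclic loess also lost it (limma adjusted p = 0.0959, 0.0758 and 0.0559).

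Of 12 regulators with known links to these genes or to nutrient state, 2 rose and 4 fell. The lipogenic factors Srebf1 and Mlxipl fell by 1.98 and 0.86, and Nr3c1, the glucocorticoid receptor, by 0.58 (limma adjusted p = 1.03e-08, 2.65e-05 and 5.00e-07), all without overlap. Myc and Atf4 rose by 0.48 and 0.31 on the log2 scale, and Atf4 lost its call without fed replicates 2 and 3 and fasted replicate 7 (adjusted p = 0.102). Sirt3, a mitochondrial deacetylase, had a difference of -0.25 (adjusted p = 0.0342), a call lost without any 1 of fed 1, 2, 3 or 7 or fasted 3, 5, 7 or 8 (0.0535 to 0.0713). Its call was also lost with array medians subtracted, quantile normalization repeated and cyclic loess (limma adjusted p = 0.122, 0.143 and 0.105). Sirt4, which inhibits glutamate dehydrogenase, had a difference of -0.26 and did not pass the test (adjusted p = 0.0516).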

How the data were processed

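Gene expression was measured on 16 arrays (8 fed, 8 fasted). The deposited table holds log2 values, judged by their range of 0.99 to 13.2, and the authors used RMA, per the submitters' processing notes. RMA corrects background, normalizes between arrays and gives 1 value per probe set, so changes are relative to the other transcripts. Its version was not given in the sources used here. No batch was given. Array medians lay between 3.60 and 3.69, and the number of arrays limits the precision.

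Of 41345 probe sets 23521 had 1 gene symbol in the platform annotation; 1814 had several and 16010 were unlisted. For the 1082 genes with more than 1, the probe set with the highest mean was used, which left 22180 genes. All were fitted in limma 3.58.1 (R 4.3.3; lmFit with group, then eBayes) with Benjamini-Hochberg adjustment, after a check on simulated data. Exact permutation tests, correlations and figures used Python 3.11.15 with matplotlib 3.10.9.

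The genes described and the lists were chosen with earlier results of these data known. Named list genes were up to 5 called genes per direction by size of change. For Gpt, Got1 and Glul the 5 most correlated genes were named, and for Gpt2, Got2 and Glud1 only the closest. Slc25a12, Slc25a13, Slc25a22, Slc7a5, Tat, Ldha, Ldhb and Sirt4 were named after their values were seen, as members of their lists. Alternatives covered probe set choice, filters on dim genes, normalization, the fit, the replicate block, left-out arrays and covariates.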

Additional observations from a re-analysis of the deposited data

Results flagged for a closer look

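Among the 12 sets of 8 values (6 genes in each group), 2 had an array far from the rest of its group by Dixon's gap ratio past its critical value, where chance gives about 1 in 20 sets. Gpt was lowest among fed arrays in replicate 2, at 7.38, with a gap of 0.624 of the group's range. Got2 was highest among fed arrays in the same replicate, at 9.45, with a gap of 0.542. Fed replicate 2 was also the highest fed array for Got1 and Glul, and had the highest mean of motile cilia genes of all arrays. Without that array the fasted minus fed difference was -2.77 for Gpt and -0.22 for Got2.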

How the results depend on the processing

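Gpt, Got1 and the unequal change within the alanine and aspartate pairs kept direction and call in each alternative run, with Gpt between -2.83 and -2.58 and Got1 between 0.86 and 1.05. Gpt2 (-0.30 to -0.12) and Glud1 (0.094 to 0.17) stayed below the threshold throughout. Glul lost its call on its dimmer probe set (0.40, adjusted p = 0.104 over all probe sets and 0.106 with the lowest probe set of each gene) and in the fit with the replicate block (0.39, adjusted p = 0.0633), which leaves 1 gene called higher in place of 2. Over the arrays left out in turn its adjusted p was at most 0.0338. Got2 gained a call with either filter on dim genes (-0.31, adjusted p = 0.0447 and 0.0461), where fewer genes were tested, and with the adipocyte mean as covariate (-0.43, cause not tested), which gives 2 genes called lower in place of 1. Glul minus Glud1 lost its call with the lowest probe set (0.27), the mean of probe sets (0.27) and sign flips within replicate numbers (0.26, adjusted p = 0.0859). Same-numbered arrays correlated between -0.216 and 0.218 in their deviations from the group means, and 2 of 8 fed arrays were closest to their own number, so the numbers were not taken as pairs. Over all genes, higher calls were 44.3% of 4251, and 54.7% of 3817 with array medians subtracted, which moved the median of all genes to 0.036. The count of other list genes called stayed within 8 to 11 higher and 20 to 25 lower. Background signal limits dim probe sets such as the second one of Got2. The other alternatives are summarised as ranges only.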

Other observations

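Single arrays were extreme in several of the 6 genes at once. Fasted replicate 8 was the highest fasted array for Gpt2, Got1, Glul and Glud1, and fed replicate 8 was the lowest fed array for Gpt2, Got2, Glul and Glud1. Fasted replicate 6 was the lowest fasted array for Got2 and Glul. The replicate numbers have no stated meaning across groups.

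For the 3 genes that did not pass the test, the most similar genes were these. Over deviations from the group means Gpt2 was closest to D230025D16Rik (r = 0.890) and Bag4 (0.888), Got2 to Pms2 (0.957) and Dlg5 (0.937), and Glud1 to Socs6 (0.839) and Elmod2 (0.830). Over all 16 arrays the closest were Fancl for Gpt2 (0.866), Ak8 for Got2 (0.913) and Elmod2 for Glud1 (0.835). Got2 stood far above the other fed arrays in fed replicate 2, at 9.45, the array with the highest cilia mean. The r values of Got2 include that array, and how far they rest on it was not tested.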
